A study of Homo sapiens with 10 samples.

Results

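Genes that write, recruit or act through methylation of lysine 9 of histone H3 (H3K9) were followed by RNA-seq in the human embryonic stem cell line H1. The 10 genes were TRIM28, SETDB1, ATF7IP, MPHOSPH8, FAM208A, PPHLN1, MORC2, EHMT1, EHMT2 and SUV39H1. They were picked by name from the table of single libraries, and all 10 had a row among its 13808 gene rows. The cells had been transduced with a packaged virus that carried a short hairpin RNA (shRNA) and then selected with puromycin. Hairpins against SMARCA4, MAFK, E2F6 or KDM1A gave the groups shSMARCA4, shMAFK, shE2F6 and shKDM1A, and a hairpin against luciferase, which has no target in human cells, gave the control group shLUC. Each of the 5 groups had 2 libraries, the cells were otherwise of wild-type genotype, and all groups shared the virus and the selection. The study describes its replicates as biological, and nothing else in the labels says how separate the cultures were. The study is about proteins that modulate chromatin structure driven by transposable elements (TEs), a class of sequence that many of the 10 genes are known to silence.

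In the textbook scheme, KRAB zinc finger proteins bind TEs and recruit TRIM28 (KAP1), a scaffold that brings in the H3K9 methyltransferase SETDB1. ATF7IP is the partner that stabilises SETDB1 and keeps it in the nucleus. The HUSH complex, built from FAM208A (now called TASOR), MPHOSPH8 (MPP8) and PPHLN1 (periphilin), acts with the ATPase MORC2 to silence young LINE-1 elements and other intron-poor transcribed DNA. EHMT1 (GLP) and EHMT2 (G9a) form a heterodimer that methylates H3K9 mainly in euchromatin, and SUV39H1 trimethylates H3K9 in pericentromeric heterochromatin. In embryonic stem cells these routes keep many endogenous retroviruses silent.

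The values are normalized tag counts, whole numbers on a scale that the authors' processing made nearly equal across libraries. Library totals ran from 22836548 to 22855295 and the median row was 594 in every library, so the sequencing depth is unknown and no counting interval is given. The hairpin targets were at 12.7% (SMARCA4), 59.6% (MAFK), 61.3% (E2F6) and 42.1% (KDM1A) of the control in their own groups, and only SMARCA4 passed the limma test over all rows there (adjusted p 8.55e-05, against 0.132 to 0.774 for the others). Replicate 1 of shKDM1A stood apart: it held the highest value of the 10 libraries for 24.3% of all rows, and the median SD between replicates on the log2 scale was 0.27 in shKDM1A against 0.11 to 0.15 in the other groups. All 8 pluripotency markers on the list were measured, and none fell below 1640 in any library. Their sum ran from 116204 in shSMARCA4 replicate 2 to 242814 in shKDM1A replicate 1, where POU5F1 alone held 148866 against 16615 to 51684 in the other libraries. The value 148866 is the highest in every library, so POU5F1 held the top of an equalized scale there. The size of that difference, and of the sum, is set by this scale. In shSMARCA4 NANOG lay above both controls (as did 25.6% of all rows) and SOX2, LIN28A, TDGF1, SALL4 and PODXL below them (25.4%). There 0 of 8 passed limma's adjusted threshold of 0.05 (4.18% of all rows), and 4 had an unadjusted p under 0.05 (16.3%). Of 12 markers of differentiated cells, 4 were measured. Their sum was 5061 and 1070 in the shSMARCA4 replicates and 144 to 385 in the other libraries, with EOMES, MIXL1 and FOXA2 high in shSMARCA4 and KRT7 low. FOXA2 was at 4 or below in every library outside shSMARCA4, at 0 in some. The part of these differences in the results below was not tested.

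Per kilobase of annotated exon, TRIM28 was the most abundant of the 10 in shLUC at 4747 normalized tag counts per kilobase. EHMT2 followed at 832, ATF7IP at 414 and MORC2 at 391. MPHOSPH8 (193), SETDB1 (176), FAM208A (163), SUV39H1 (132), EHMT1 (124) and PPHLN1 (93.6) lay lower. TRIM28, the scaffold that brings in SETDB1, was thus far more abundant as RNA than the methyltransferases. The scale divides by all annotated exons and so understates genes with long alternative exons.

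TRIM28 (ENSG00000130726, chromosome 19, 58544091 to 58550722, GRCh38, plus strand) held 19692 and 18607 normalized tag counts in replicates 1 and 2 of shLUC. It held 23453 and 25021 with shSMARCA4, 18607 and 19692 with shMAFK, 23453 and 27326 with shE2F6, and 30768 and 18607 with shKDM1A. Both shSMARCA4 and both shE2F6 libraries lay above both controls, shMAFK repeated the control values in the other order, and the shKDM1A libraries lay at the top and bottom of the whole range. TRIM28 stood at rank 54 to 114 from the top of a library, where each of its values was held by 7 rows and recurred in all 10 libraries, so its level was read on a coarse scale. The log2 change was 0.34 in shSMARCA4 (SE 0.21, 95% interval -0.13 to 0.81, limma adjusted p 0.494) and 0.40 in shE2F6 (interval -0.07 to 0.87, limma adjusted p 0.987). In shKDM1A it was 0.32 (limma adjusted p 0.531), and it was -0.04 without replicate 1 and 0.68 without replicate 2 (limma adjusted p 0.00829), so its sign rested on the choice of library. In that last fit 3235 of all 14785 rows passed, against 4 in the main fit.

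SETDB1, the methyltransferase that TRIM28 recruits (ENSG00000143379, chromosome 1, 150926263 to 150964744, plus strand), was the steadiest of the 10, with its highest library only 1.27 times its lowest. It held 1225 and 1269 with shLUC, 1170 and 1184 with shSMARCA4, 1297 and 1266 with shMAFK, 1066 and 1206 with shE2F6, and 1158 and 1353 with shKDM1A. The shSMARCA4 and shE2F6 libraries all lay below both controls, by little. The log2 changes ran from -0.14 in shE2F6 to 0.04 in shMAFK, and the 95% intervals of the 4 comparisons lay between -0.48 and 0.38. A change of SETDB1 by a log2 of 1 in either direction was therefore outside every interval.

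ATF7IP (ENSG00000171681, chromosome 12, 14365632 to 14502935, plus strand), the partner of SETDB1, had its lowest group mean in the control. It held 5300 and 5626 with shLUC, 6077 and 5788 with shMAFK, 5788 and 6828 with shE2F6, 6578 and 8374 with shKDM1A, and 4852 and 7210 with shSMARCA4. The libraries of shMAFK, shE2F6 and shKDM1A all exceeded both controls, while shSMARCA4 spanned them. The widest difference, in shKDM1A, was a log2 change of 0.44 (SE 0.21, 95% interval -0.03 to 0.91, limma adjusted p 0.446).

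**Figure D1:**
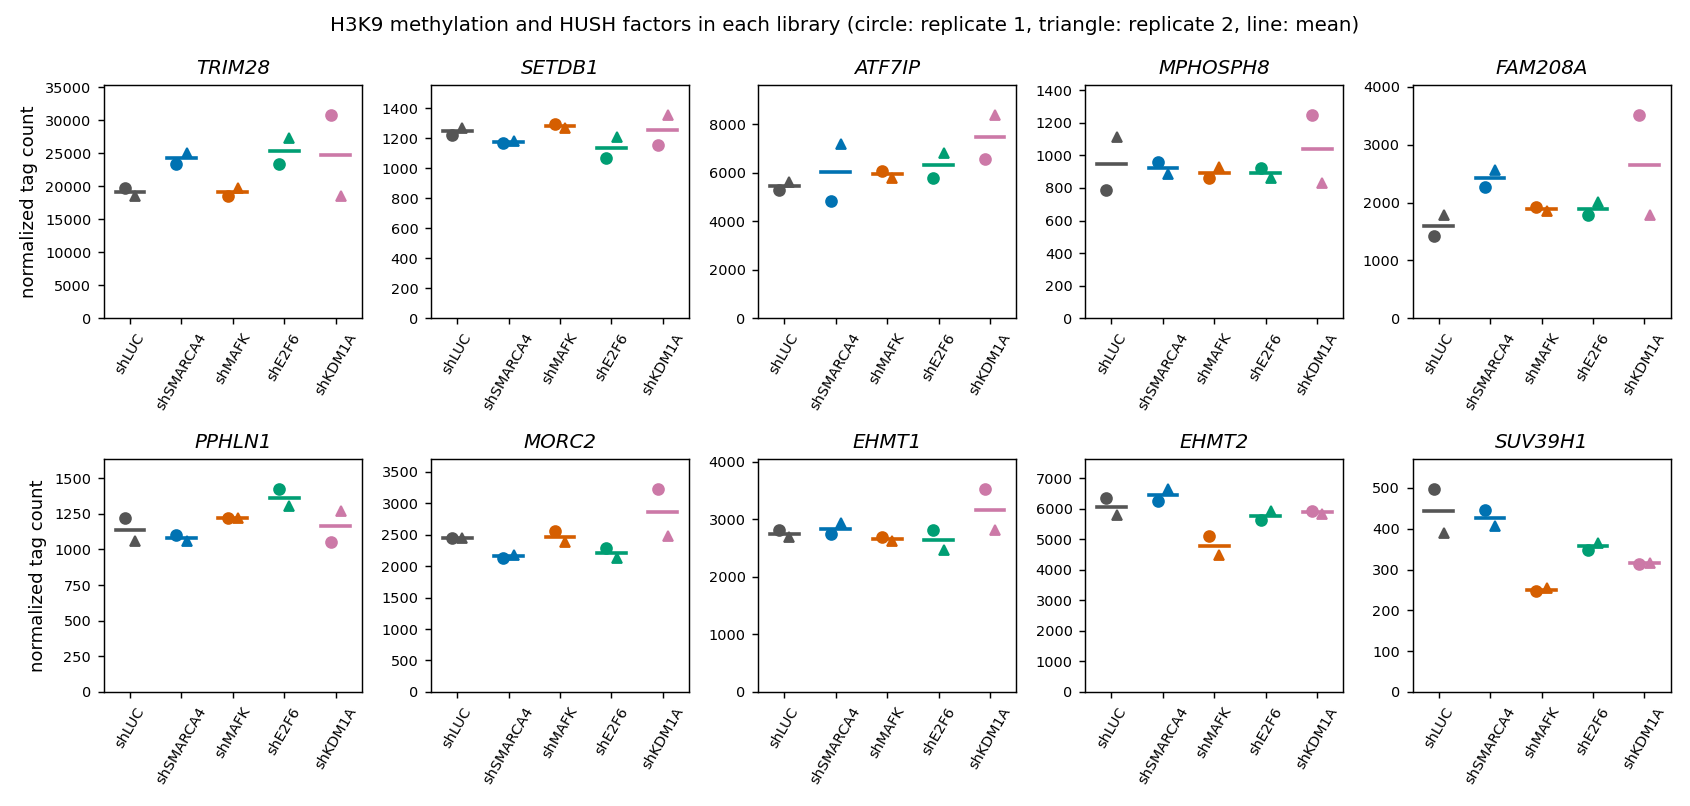
Normalized tag count of each of the 10 genes (vertical axis, from 0) in every library of the 5 groups (horizontal axis); circles are replicate 1, triangles replicate 2 and lines the mean of the 2. SUV39H1 was lowest in shMAFK at 247 and 254, FAM208A was highest in shKDM1A replicate 1 at 3507, and SETDB1 stayed between 1066 and 1353.

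Within HUSH, FAM208A had the widest range. FAM208A (ENSG00000163946, chromosome 3, 56620133 to 56683237, minus strand) encodes the scaffold subunit. It held 1418 and 1776 with shLUC, 2266 and 2567 with shSMARCA4, 1920 and 1859 with shMAFK, 1780 and 2012 with shE2F6, and 3507 and 1780 with shKDM1A. Every knockdown library lay above both controls, although the lowest of them, at 1780 in shE2F6 and in shKDM1A, exceeded the higher control by only 4. Mean levels in shSMARCA4 were 151% of the control, a log2 change of 0.60 (SE 0.28, 95% interval -0.03 to 1.24, limma adjusted p 0.337). The same change had a limma adjusted p of 0.0452 in a fit without both shKDM1A libraries, where 1162 rows passed against 618 in the main fit. It was 0.0455 without shKDM1A replicate 1 and 0.0449 without shKDM1A replicate 2. In shKDM1A the mean was 166% of the control (log2 change 0.65, interval 0.02 to 1.29, limma adjusted p 0.426), but replicate 2 lay at the control level. Without that replicate the log2 change was 1.14, and without replicate 1 it was 0.17, so its size rested on the choice of library.

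The other HUSH subunits had narrower ranges, the highest library being 1.59 times the lowest for MPHOSPH8 and 1.35 times for PPHLN1, against 2.47 for FAM208A. MPHOSPH8 (ENSG00000196199, chromosome 13, 19633681 to 19673459, plus strand), the chromodomain subunit that reads methylated H3K9, held 786 and 1110 with shLUC, a spread that took in every other library except shKDM1A replicate 1. Its remaining values were 960 and 887 with shSMARCA4, 861 and 928 with shMAFK, 920 and 862 with shE2F6, and 1246 and 832 with shKDM1A. Its log2 changes ran from -0.07 to 0.12, with an SE of 0.23. The sign of all 4 turned when a control library was left out: replicate 2 for shSMARCA4, shMAFK and shE2F6, and replicate 1 for shKDM1A. It also turned without shSMARCA4 replicate 2 in shSMARCA4 and without shKDM1A replicate 1 in shKDM1A.

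PPHLN1 (ENSG00000134283, chromosome 12, 42238447 to 42459715, plus strand) held 1220 and 1056 with shLUC, 1100 and 1060 with shSMARCA4, 1220 and 1217 with shMAFK, 1423 and 1304 with shE2F6, and 1052 and 1272 with shKDM1A. The shE2F6 libraries were the highest of all 10, at 120% of the control on average. That difference, a log2 change of 0.26 (SE 0.16, 95% interval -0.10 to 0.62, limma adjusted p 1), was within the error of the fit.

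MORC2 (ENSG00000133422, chromosome 22, 30925130 to 30968298, minus strand), the ATPase that compacts HUSH targets, had nearly equal controls at 2450 and 2441. It held 2138 and 2178 with shSMARCA4, 2555 and 2381 with shMAFK, 2282 and 2138 with shE2F6, and 3226 and 2483 with shKDM1A. It was thus below both controls in shSMARCA4 and shE2F6 and above both in shKDM1A. The log2 changes were -0.18 (95% interval -0.55 to 0.19), -0.15 (-0.51 to 0.22) and 0.21 (-0.16 to 0.58), with limma adjusted p from 0.585 to 1.

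The subunits of the G9a/GLP dimer were read separately. EHMT1 (ENSG00000181090, chromosome 9, 137618963 to 137870016, plus strand) held 2818 and 2690 with shLUC, 2740 and 2934 with shSMARCA4, 2701 and 2618 with shMAFK, 2818 and 2474 with shE2F6, and 3528 and 2808 with shKDM1A. Every group overlapped the control, and the 95% intervals of its 4 log2 changes lay between -0.42 and 0.56. EHMT2 (ENSG00000204371, chromosome 6, 31879759 to 31897687, minus strand) held 6343 and 5788 with shLUC, 6249 and 6647 with shSMARCA4, 5626 and 5923 with shE2F6, and 5923 and 5844 with shKDM1A. In shMAFK it held 5108 and 4486, the lowest values of all 10 libraries and 79.1% of the control mean. The log2 change there was -0.34 (SE 0.14, 95% interval -0.65 to -0.03), with an unadjusted p of 0.0351, adjusted by limma to 0.524.

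SUV39H1 (ENSG00000101945, chromosome X, 48695554 to 48709012, plus strand) had the widest difference of the 10 in any comparison. It held 497 and 389 with shLUC, 446 and 406 with shSMARCA4, 347 and 366 with shE2F6, 314 and 316 with shKDM1A, and 247 and 254 with shMAFK. The order of the groups from shSMARCA4 down to shMAFK had no overlap between neighbours, whereas shSMARCA4 lay inside the range of the controls. In shMAFK the mean was 250.5 ± 4.95 (SD, n = 2) against 443 ± 76.4 in the control, or 56.5%. MAFK itself held 82 and 216 in those libraries and 212 and 288 in the control, so its second library lay within the control range while SUV39H1 was low in both. The log2 change was -0.81 (SE 0.16, 95% interval -1.17 to -0.45), with an unadjusted p of 0.000689 and a limma adjusted p of 0.142. In a limma fit that weights each group by its own spread the adjusted p was 0.0137, and 487 of all rows passed in that fit against 2 in the main fit. In shKDM1A the log2 change was -0.48 (95% interval -0.84 to -0.12, limma adjusted p 0.366) and in shE2F6 it was -0.30 (95% interval -0.67 to 0.06, limma adjusted p 0.987).

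SUV39H1 and EHMT2 are shown by sequence because both were lowest in both shMAFK libraries, and FAM208A because it had the widest range. The letters are from RefSeq on GRCh38.p14 and lie upstream of annotated starts, with bases inside any annotated exon left out. Of the 10 genes, 9 had an entry in that table. Capitals mark a CCAAT box (CCAAT or ATTGG) or the palindrome CACGTG. SUV39H1 also has a CCAAT box 38 bases upstream of its start further 3′, among the bases left out, so it is not shown.
SUV39H1, chrX:48695304-48695553, plus strand: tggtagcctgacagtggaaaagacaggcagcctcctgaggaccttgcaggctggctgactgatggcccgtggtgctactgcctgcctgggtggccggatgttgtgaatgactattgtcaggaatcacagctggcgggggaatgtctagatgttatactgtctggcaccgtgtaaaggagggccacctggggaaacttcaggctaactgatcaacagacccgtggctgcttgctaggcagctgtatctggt
SUV39H1, start further 3′, chrX:48696484-48696594, plus strand: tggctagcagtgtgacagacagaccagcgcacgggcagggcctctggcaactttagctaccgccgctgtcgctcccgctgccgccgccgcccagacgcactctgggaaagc
EHMT2, chr6:31897699-31897784, minus strand: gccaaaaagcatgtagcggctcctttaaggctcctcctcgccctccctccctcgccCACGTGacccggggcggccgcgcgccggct
FAM208A, chr3:56683266-56683515, minus strand: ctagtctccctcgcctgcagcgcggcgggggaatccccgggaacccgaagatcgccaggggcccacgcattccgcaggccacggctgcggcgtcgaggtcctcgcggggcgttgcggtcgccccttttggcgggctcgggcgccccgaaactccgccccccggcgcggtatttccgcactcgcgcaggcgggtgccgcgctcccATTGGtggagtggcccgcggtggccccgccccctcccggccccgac

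MAFK dimers bind the MAF recognition element, whose half-site reads TGCTGA and whose core reads TGAGTCA or TGACTCA. Searched on both strands in the 250 bases upstream of every annotated start, TGCTGA was present in 14.0% of 35116 windows and the core in 4.20%. Neither was present in the full windows of SUV39H1, EHMT2 or FAM208A. TGCTGA was present in the window of MORC2, 156 bases upstream of the start, and in the window of an alternative start of ATF7IP, 73 bases upstream, and the core was in no window of the 9 genes. Motifs of the E2F family, searched only as TTTCCCGC, TTTCGCGC, TTTGCCGC or TTTGGCGC, were present in 2.79% of windows and in no window of the 9 genes. Other forms were not searched. The FAM208A sequence above holds TTTGGCGG, which differs from TTTGGCGC in its last letter. CACGTG was present in 6.34% of windows and CCAAT in 32%. These matches describe letters only.

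**Figure D2:**
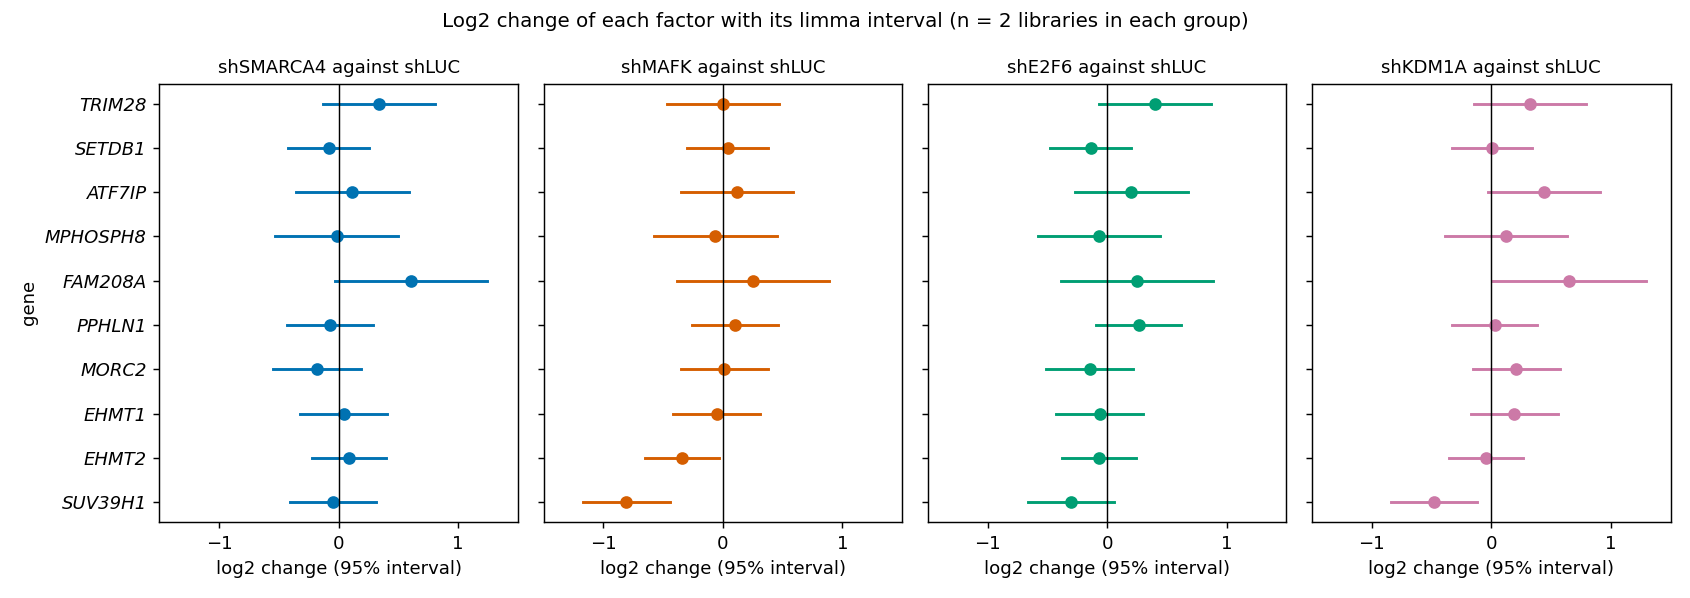
Log2 change of each of the 10 genes (rows) in each knockdown against shLUC (panels), with points for the limma estimate and bars for its 95% interval (n = 2 libraries in each group). The intervals lie wholly below 0 for SUV39H1 and EHMT2 in shMAFK and for SUV39H1 in shKDM1A, and wholly above 0 for FAM208A in shKDM1A, before any adjustment over the rows tested.

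Over the 10 genes, 0 of 40 tests passed at a limma adjusted p under 0.05, and 4 had an unadjusted p under 0.05. In shSMARCA4, 0 of 10 passed where 4.18% of all 14785 rows did, with 0 of 10 at an unadjusted p under 0.05 where 16.3% of rows did. In shMAFK 0 of 10 passed (0.0135% of rows) and 2 had an unadjusted p under 0.05 (8.77% of rows), namely SUV39H1 and EHMT2. In shE2F6 0 of 10 passed (0% of rows) and 0 had an unadjusted p under 0.05 (5.09% of rows). In shKDM1A 0 of 10 passed (0.0271% of rows) and 2, FAM208A and SUV39H1, had an unadjusted p under 0.05 (11.5% of rows). Counts of 10 genes are too small to set apart from these shares. With group weights 1 gene passed in shMAFK and 0 in the other 3 comparisons.

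The size of the changes was compared with all rows as a description. The median absolute log2 change of the 10 genes was 0.09 in shSMARCA4, where it was 0.21 over all rows, and 0.08 in shMAFK against 0.17. It was 0.17 in shE2F6 against 0.16 and 0.20 in shKDM1A against 0.23. The signed medians, in the same order of knockdowns, were 0.01, 0.01, -0.06 and 0.16, where those of all rows lay between -0.02 and 0.01. In shE2F6, 7 of the 10 genes did not overlap with the control, where 40.7% of all rows did not: TRIM28, ATF7IP, FAM208A and PPHLN1 lay above (20.3% of rows) and SETDB1, MORC2 and SUV39H1 below (20.4%). In shSMARCA4 4 did not overlap (51% of rows), TRIM28 and FAM208A above (25.6%) and SETDB1 and MORC2 below (25.4%). In shMAFK 4 did not overlap (49.1% of rows), ATF7IP and FAM208A above (23.8%) and EHMT2 and SUV39H1 below (25.3%). In shKDM1A 4 did not overlap (38.8% of rows), ATF7IP, FAM208A and MORC2 above (17.9%) and SUV39H1 below (20.9%). FAM208A was thus above the control in every knockdown and SUV39H1 below it in all but shSMARCA4. All 4 comparisons share the 2 control libraries, so a low or high control library moves a gene the same way in each.

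Whether the knockdowns differed among themselves was tested with limma's moderated F-test, which does not use the shLUC mean. It called 0 of the 10 genes, where it called 6.64% of all rows. At an unadjusted p under 0.05 it held 1 of the 10, SUV39H1, and 23.6% of all rows. For SUV39H1 the unadjusted p was 0.00666 and the limma adjusted p 0.0711. It passed with group weights (0.0426, where 1535 of all rows passed against 982 in the main fit), without both shKDM1A libraries (0.0261, 2117 rows) and without shKDM1A replicate 1 (0.0488, 1649 rows). It was 0.240 and 0.238 without replicate 1 or 2 of shMAFK, 0.221 and 0.182 without those of shSMARCA4, and 0.130 and 0.146 without those of shE2F6. Without shKDM1A replicate 2 the F-test called 5302 rows and 4 of the 10 genes, SUV39H1 (0.022), TRIM28 (0.0152), FAM208A (0.0176) and MORC2 (0.0405), and the last 3 have their highest value in the shKDM1A library that remained.

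Levels were then compared between the genes over the 10 libraries, as a description, since the libraries fall into 5 groups and share their processing. EHMT2 and SUV39H1 had the most similar profiles of the 45 pairs (Pearson r 0.84, Spearman rho 0.79, n = 10), with r 0.65 when the 2 libraries farthest from the median of EHMT2 were left out. TRIM28 and FAM208A followed (r 0.78, rho 0.71), with r 0.58 without shKDM1A replicate 1. TRIM28 and SETDB1, whose proteins act together, had the most opposed profiles over all 10 libraries (r -0.67, rho -0.83). Without shKDM1A replicate 1 their r was -0.68, and TRIM28 and MORC2 were then the most opposed, with r -0.94 against 0.15 over all 10. MORC2 and EHMT1 had r 0.77 but only 0.13 without shKDM1A replicate 1, so their likeness rests on that library. That library held the highest value of 5 of the 10 genes (TRIM28, MPHOSPH8, FAM208A, MORC2 and EHMT1) and the lowest of PPHLN1.

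**Figure D3:**
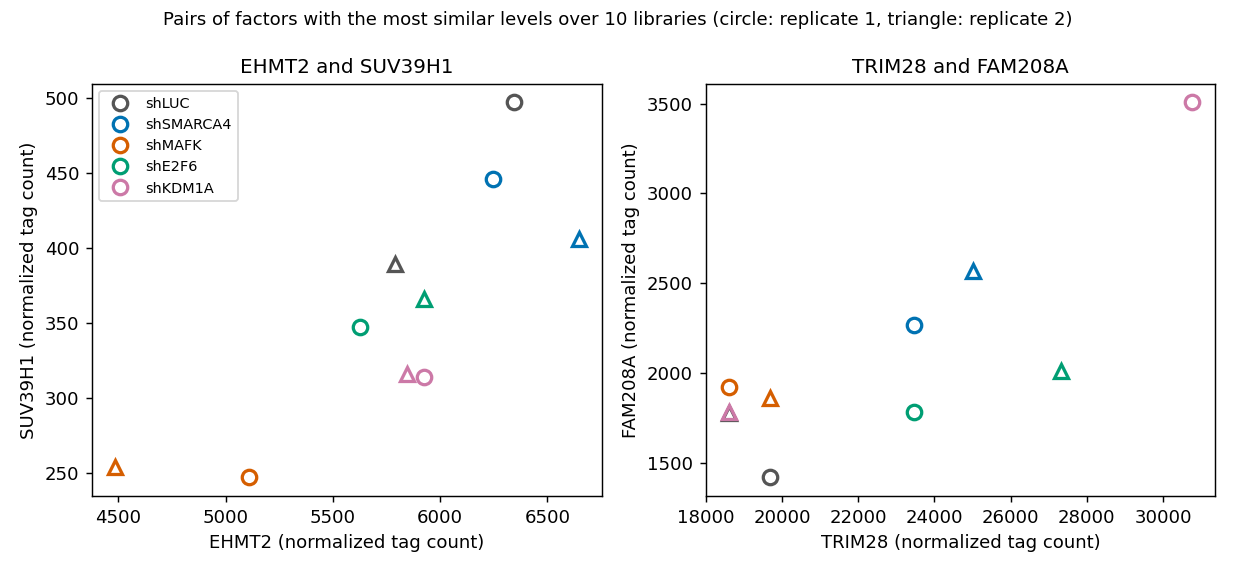
Normalized tag counts of SUV39H1 (vertical) against EHMT2 (horizontal) on the left and of FAM208A (vertical) against TRIM28 (horizontal) on the right in the 10 libraries, coloured by group; circles are replicate 1 and triangles replicate 2, and neither axis starts at 0. The shMAFK libraries lie at the bottom left of the EHMT2 and SUV39H1 plot, and shKDM1A replicate 1 lies at the top right of the other, where shLUC replicate 2 and shKDM1A replicate 2 nearly coincide at 18607.

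Among 13758 other genes with a mean of at least 50, the profile most like that of SUV39H1 belonged to TBC1D25 (r 0.93, rho 0.93, n = 10 libraries), which encodes a Rab GTPase-activating protein. TBC1D25 is also on chromosome X, at 48539457 to 48562609 on the plus strand, 132944 bases from SUV39H1. It held 110 and 96 with shLUC and 66 and 65 with shMAFK. Between the pair lay 2 rows, RBM3 and WDR13, which differed. WDR13 held 284 and 322 with shLUC and 311 and 280 with shMAFK, so its groups overlapped. RBM3 held 2190 and 2404 with shLUC and 1568 and 1958 with shMAFK, so both shMAFK libraries lay below both controls. Whether the region shares a change was not tested. The next profile was that of HSD17B7 (r 0.93), an enzyme of cholesterol synthesis. The closest genes were picked as the highest r among so many genes over 10 libraries, so their r is high by that choice. An r of 0.9 was reached by 10 genes with SUV39H1, and by 1 (SETDB1) to 107 (MORC2) across the 10 genes.

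For the other genes the 2 closest profiles were FZD4 and SAFB for TRIM28 (r 0.95 and 0.95), TCEANC and SLC44A5 for SETDB1 (0.94 and 0.89), and SDK1 and ST3GAL3 for ATF7IP (0.95 and 0.91). They were LRRC58 and KIAA1211 for FAM208A (0.98 and 0.98), SUPT5H and TAF1 for MPHOSPH8 (0.93 and 0.92), and STEAP3 and AC125807.2 for PPHLN1 (0.94 and 0.94). They were ANKRA2 and AC013489.1 for MORC2 (0.98 and 0.98), PPP5D1 and ABHD15 for EHMT1 (0.96 and 0.95), and PREP and KAT7 for EHMT2 (0.95 and 0.94). None of these 20 closest genes was another of the 10. For MPHOSPH8 the likeness to SUPT5H fell to 0.54 without the 2 farthest libraries.

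The wider pathway was described from 4 lists with 37 of 39 genes measured. In shSMARCA4 1 of the 37 was higher and 0 lower at a limma adjusted p under 0.05, where 4.18% of all rows passed, and 0 passed in either direction in the other comparisons. Unadjusted, 4 of the 37 had a p under 0.05 in shKDM1A (KDM1A itself included), where 11.5% of all rows did. The count was 3 in shMAFK (8.77% of rows), 2 in shE2F6 (5.09%) and 2 in shSMARCA4 (16.3%), all near or below the shares over all rows. The median log2 change of the 37 was 0.16 in shKDM1A and between -0.03 and 0.02 in the others. MECOM and MORC1, also on the lists, were not analysed here. The gene that rose was KDM4C, a demethylase that removes H3K9 trimethylation. It held 966 and 942 with shLUC, 1490 and 1728 with shSMARCA4, and 874 to 1269 in the other libraries, so shSMARCA4 stood above all others. Its log2 change was 0.75 (SE 0.15, 95% interval 0.40 to 1.10, limma adjusted p 0.0302), and it also passed the F-test among knockdowns (0.0435). The call was lost when any library of shLUC, shSMARCA4 or shMAFK was left out (limma adjusted p 0.0648 to 0.221), while the log2 change stayed between 0.64 and 0.86.

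Of the other 10 H3K9 demethylases, KDM1A was the target of a hairpin. It held 3290 and 1879 with shKDM1A and 5421 to 6492 elsewhere, and passed the F-test among knockdowns (limma adjusted p 0.0274). Among 12 readers and assembly factors the smallest unadjusted p belonged to CBX5 and CBX1, which encode the HP1 proteins that bind methylated H3K9. CBX5 held 12340 and 13159 with shLUC and 18607 and 25021 with shSMARCA4, a log2 change of 0.76 (95% interval 0.19 to 1.33, limma adjusted p 0.157). It passed in a limma fit of those groups alone (0.0349), where 917 of all rows passed against 618 in the main fit. CBX1 held 4003 and 3820 with shLUC and 2794 and 3168 with shMAFK (log2 change -0.39, limma adjusted p 0.514).

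Among 11 partners measured, FAM208B (TASOR2), the paralog of FAM208A, held 1550 and 1454 with shLUC and 1971 and 2505 with shE2F6 (log2 change 0.57, limma adjusted p 0.884). ATF7IP2, the paralog of ATF7IP, held 295 and 276 with shLUC and 142 and 226 with shKDM1A (log2 change -0.67, limma adjusted p 0.351). Of the other methyltransferases, SETDB2 held 248 and 268 with shLUC and 404 and 244 with shKDM1A (log2 change 0.28, limma adjusted p 0.639, and -0.08 without shKDM1A replicate 1). PRDM2 held 670 and 714 with shLUC and 728 and 861 with shSMARCA4 (log2 change 0.19, limma adjusted p 0.716).

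**Figure D4:**
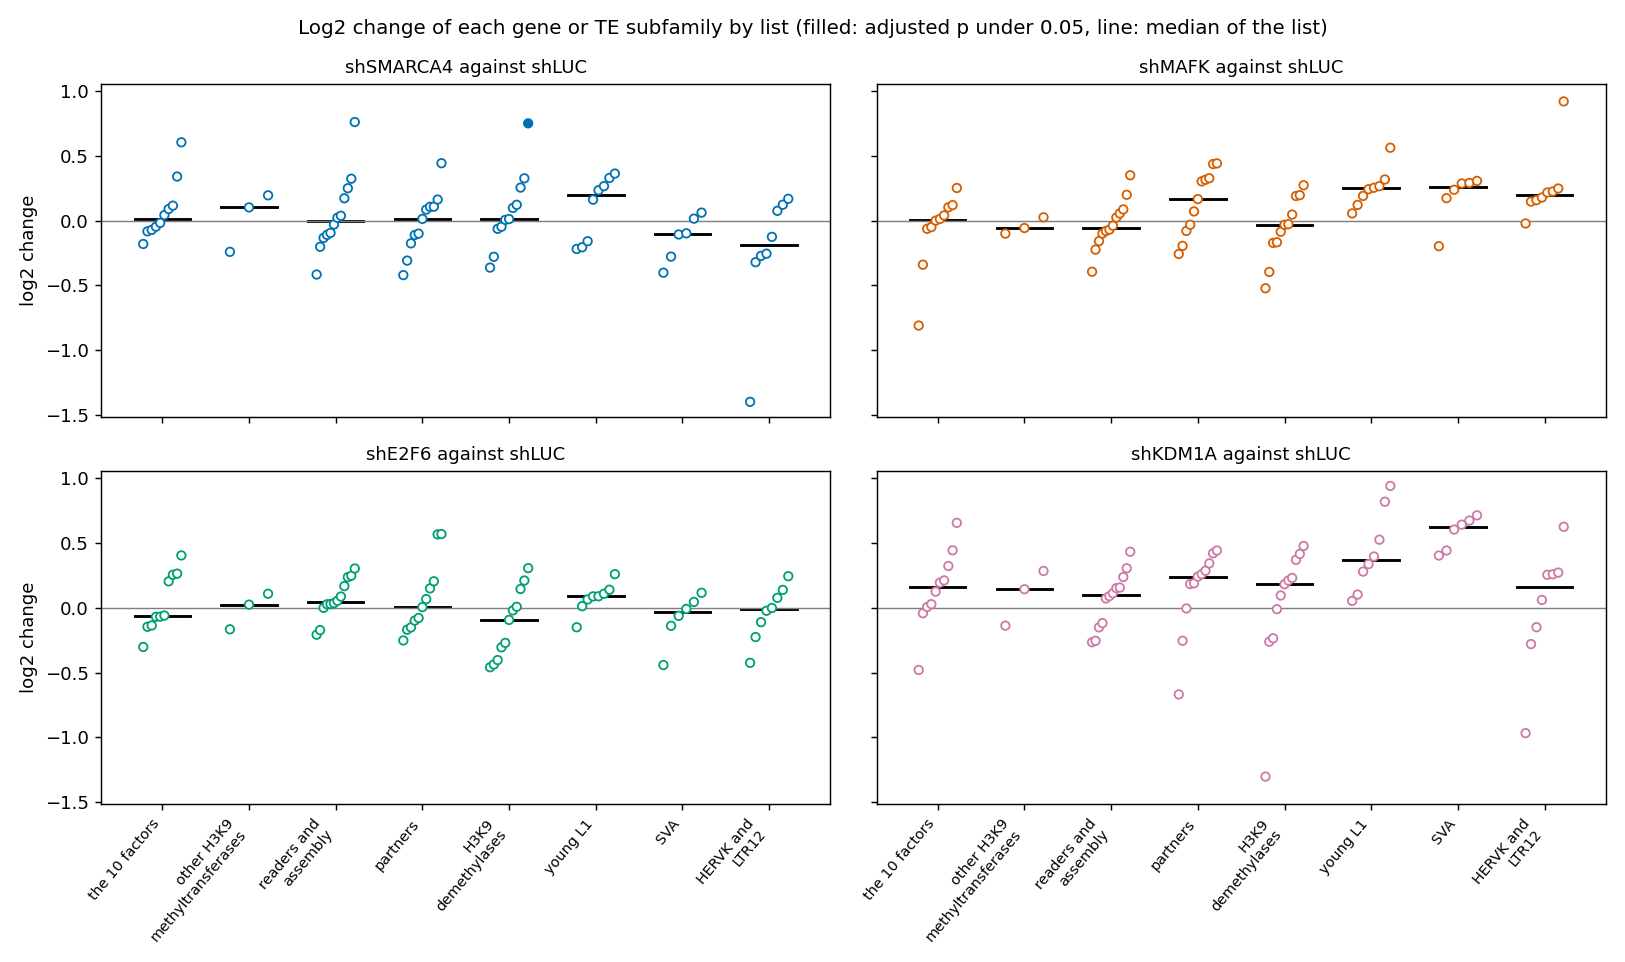
Log2 change against shLUC (vertical axis) of the 10 genes, of 37 other genes of the pathway and of 22 TE subfamilies, grouped by list (horizontal axis) in 4 panels by knockdown; lines are medians of a list and filled points have a limma adjusted p under 0.05. The single filled point is KDM4C in shSMARCA4 at 0.75, and the 6 SVA subfamilies in shKDM1A all lie above 0 with a median of 0.62.

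TE rows were also listed, from families with members that TRIM28, SETDB1 or HUSH are known to silence. They were 8 young LINE-1 subfamilies, 6 SVA subfamilies, and 8 rows of HERVK(HML-2) and LTR12. A link between these rows and the levels of the 10 genes was not tested. All 22 were measured and 0 of 88 tests passed at a limma adjusted p under 0.05. Unadjusted, 9 of 22 had a p under 0.05 in shKDM1A (11.5% of all rows), 2 in shSMARCA4 (16.3%), 1 in shMAFK (8.77%) and 0 in shE2F6 (5.09%). In shKDM1A 19 of the 22 were higher than in shLUC with a median log2 change of 0.37, where the median of all rows was -0.02. In shMAFK 20 were higher, with a median of 0.23, where that of all rows was -0.0042. The count was 12 in shE2F6 (median 0.03) and 10 in shSMARCA4 (median -0.10). All these comparisons share the same control libraries. L1HS, the human-specific LINE-1, held 1432 and 1586 with shLUC and 2952 and 2830 with shKDM1A, both above the 1087 to 2273 of every other library. Its log2 change of 0.94 (SE 0.23, 95% interval 0.42 to 1.45) had a limma adjusted p of 0.245, and of 0.806 with group weights. It was 0.0374 without shKDM1A replicate 2.

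The other TE rows differed in which shKDM1A library was the higher. L1PA3 held 15764 and 13578 with shLUC and 35716 and 18610 with shKDM1A. SVA_A held 1155 and 1331 against 2412 and 1550, SVA_C 587 and 876 against 1458 and 948, and LTR12D 350 and 346 against 688 and 419. In each of these, and in all 6 SVA rows, replicate 1 was the higher. L1PA4, L1PA5, L1PA6, L1PA7 and L1PA8, older LINE-1 subfamilies picked out after their values were seen, were higher in replicate 2, as with 11635 and 14274 for L1PA4. L1PA2, also picked out then, held 10950 and 10757, above the 5498 to 9502 of all other libraries. Without replicate 2, L1PA3 passed at a limma adjusted p of 0.00156, LTR12D at 0.00493, SVA_A at 0.00977 and SVA_C at 0.0176, in the fit that called 3235 rows. In the main fit the limma adjusted p of these 4 ran from 0.345 to 0.383. HERVK-int, the internal part of the youngest human endogenous retroviruses, had another pattern: it held 3780 in both controls, 1166 and 1764 with shSMARCA4, 6012 and 8496 with shMAFK, 2282 and 3474 with shE2F6, and 1076 and 3474 with shKDM1A. Its log2 change in shSMARCA4 was -1.40 (95% interval -2.47 to -0.32, limma adjusted p 0.169). HERVK-int passed there with group weights (0.0175, where 1306 of all rows passed against 618 in the main fit). It also passed when both shKDM1A libraries were left out (0.0158, 1162 rows). How reads of a TE copy inside a gene were shared between the rows is not given in the sources used here.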

How the data were processed

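Per the submitters' processing notes the tools were STAR and STARsolo with genome build hg38, with no versions or roles given. The counter, annotation and normalization are not given in the sources used here. The deposited values are scores: whole numbers that the authors normalized, not raw counts, with 80.3% of ranks equal in all 10 libraries. Columns not mapped to a sample numbered 0. Values were analysed as log2(value + 1), which understates changes of low rows. Each knockdown was compared with shLUC in 1 limma 3.58.1 fit (R 4.3.3) of all 10 libraries with a mean-variance trend, 5 residual degrees of freedom and two-sided tests. A filter on the row mean (10 or more) kept all 14785 rows and all 10 genes, and p-values were adjusted over all rows by the Benjamini-Hochberg method. The p-values measure the spread between these libraries. Gene positions and exon lengths are from GENCODE release 29 (GRCh38), in which all 13808 gene identifiers were found. Strand use in counting is not given, and exons of 7 of the 10 genes overlap another annotated gene (not TRIM28, ATF7IP or MPHOSPH8), most on the opposite strand, so their values may hold reads of that gene. Named genes were the 10, the 4 targets, the 2 genes most like each in Pearson r, and list genes past the threshold or, with none, the 2 of smallest p. The genes and lists were chosen with earlier results of these data known. Tables used Python 3.11.15 and pandas 2.3.3.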

Additional observations from a re-analysis of the deposited data

How the results depend on the processing

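None of the 40 log2 changes of the 10 genes passed in the main fit, and 428 of 430 values under 11 other settings kept direction and side of the threshold. The exceptions were SUV39H1 in shMAFK with group weights and FAM208A in shSMARCA4 without both shKDM1A libraries. Much of this agreement was fixed in advance. No row had a mean under 19.3, so leaving out the filter repeated the main fit. Settings that change only the rows tested, the groups fitted or the error estimate leave a log2 change as it was. Normalizing again could move little, since the values were already nearly equal across libraries. The count of genes called was 1 with group weights in shMAFK and in the F-test, and 1 without both shKDM1A libraries in shSMARCA4 and in the F-test. With the replicate number as a block 0 of the 10 genes passed in any comparison and 643 of all rows passed in shSMARCA4, against 618 without it. Deviations of libraries with the same number correlated at -0.05 to 0.34, so the numbers were not taken as pairs. Calls over all rows, from which the background shares come, moved far more. The 618 in shSMARCA4 became 1306 with group weights, 1162 without both shKDM1A libraries and 89 to 1159 with 1 library left out (127 and 89 without replicate 1 or 2 of shLUC, 247 and 194 without those of shSMARCA4, 378 and 380 without those of shMAFK). The 982 of the F-test became 1535, 2117 and 278 to 5302, and 519 in a fit of the 4 knockdowns alone. In shMAFK 2 became 487 with group weights.

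Leaving out each library in turn, with a lone library assumed to vary like the other groups, gave 0 to 1 genes called in shSMARCA4, 0 to 2 in shKDM1A and 0 to 4 in the F-test. Of 400 such log2 changes 377 kept direction and side, 4 passed and 19 turned sign, and the cause was not tested. Among the named rows, ranges that cross 0 were -0.27 to 0.23 (shSMARCA4), -0.31 to 0.19 (shMAFK), -0.32 to 0.18 (shE2F6) and -0.17 to 0.42 (shKDM1A) for MPHOSPH8. In shSMARCA4 they were -0.17 to 0.40 for ATF7IP, -0.18 to 0.032 for PPHLN1, -0.0070 to 0.092 for EHMT1 and -0.22 to 0.13 for SUV39H1. In shKDM1A they were -0.041 to 0.68 for TRIM28, -0.11 to 0.12 for SETDB1, -0.11 to 0.16 for PPHLN1, -0.11 to 0.024 for EHMT2 and -0.079 to 0.65 for SETDB2. They were -0.039 to 0.063 for MORC2 in shMAFK and -0.15 to 0.034 for EHMT1 in shE2F6. TRIM28 in shMAFK, at 0 in the main fit, ranged from -0.041 to 0.041, and PPHLN1 in shMAFK from -0.0018 to 0.21. Neither is among the 19, since sizes under 0.005 were counted as having no direction. Depth is unknown, and 2 libraries in each group limit what could be called.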
